A study of Schizosaccharomyces pombe with 12 samples.

Results

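The comparison described here set 2 altered forms of histone H2B against each other in the fission yeast Schizosaccharomyces pombe. The Q strain carries glutamine in place of 3 lysines of the H2B tail, at residues 5, 10 and 15 (K5Q, K10Q and K15Q), and the A strain is labelled as carrying alanine there (K5A, K10A and K15A). There were 3 libraries of Q and 3 of A, which are 6 of the 12 libraries of the series. The other 6 are 3 libraries of R, in which the same lysines were replaced by arginine (K5R, K10R and K15R), and 3 of WT, which carries none of the substitutions. They entered the fit and are quoted only for reference. The libraries were chosen by their labels alone, and counts were joined gene by gene on the gene identifier, which gave 5160 genes, of which 5024 passed the filter on low counts. Messenger RNA was enriched with oligo(dT) from whole-cell total RNA. The labels do not say whether the altered allele sits at the native locus, which promoter drives it, whether a strain is 1 clone, or whether replicates are separate cultures. The p-values therefore describe the spread between these libraries, which may be technical.

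Histone H2B pairs with H2A, and a pair of such dimers completes the nucleosome around which DNA is wrapped. Its amino-terminal tail projects from the nucleosome and carries lysines that acetyltransferases can modify. Acetylation removes the positive charge of lysine. Glutamine is uncharged and resembles acetyl-lysine in shape, which is why it is used as a stand-in for it, whereas alanine is uncharged and has only a short side chain. The comparison of Q with A therefore sets the presumed mimic of acetyl-lysine against another neutral residue. In fission yeast H2B is encoded by a single gene, htb1, which lies next to the H2A gene hta1 on chromosome III and is transcribed away from it.

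The start of the htb1 coding sequence is shown because it holds the 3 codons that the strains differ in. The sequence is that of the reference strain in RefSeq (assembly ASM294v3, sense strand, 57 of the bases that encode 126 residues with the start methionine), with the codons at positions 5, 10 and 15, counted after the start methionine, in capitals.
htb1: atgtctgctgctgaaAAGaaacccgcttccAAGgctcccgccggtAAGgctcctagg
All 3 codons in capitals encode lysine. The label of A replicate 2 names K16A where those of A replicates 1 and 3 name K15A. In the reference sequence residue 16 is encoded by GCT and is already alanine, so the label of A replicate 2 and the sequence are at odds. The deposited tables hold no sequence reads with which the allele of that library could be checked, and where leaving it out changes the call of a gene named below, the adjusted p without it is given in the same paragraph. The same is done for the other libraries.

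The Q libraries held 15329416, 16608465 and 16556527 counts and the A libraries 16504014, 16865857 and 17100237, within the range of the whole series (15329416 to 20050394). A count of 3 corresponded to between 0.15 and 0.196 CPM (counts scaled to a common library size). Levels of a gene are given below as CPM scaled between libraries by the TMM method, and levels of different genes are compared only as FPKM, which is also scaled for gene length. Over all tested genes the libraries did not fall cleanly into Q and A. The nearest pair among the 6 was Q replicate 1 and A replicate 2, with a root mean square distance of 0.295 on the log2 scale. Distances within Q were between 0.511 and 0.581 and within A between 0.343 and 0.486. On the first principal component, which held 49.2% of the variance of the 6 libraries, Q replicates 1, 2 and 3 stood at 0.6, 31.2 and 8.7 and A replicates 1, 2 and 3 at -17.7, -2.5 and -20.4. The second component held 22.6% and put Q replicate 1 and A replicate 2 together at -16 and -14.6. The level of htb1 nevertheless placed the pair far apart, at 1134 CPM in Q replicate 1 and 9921 CPM in A replicate 2.

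**Figure D1:**
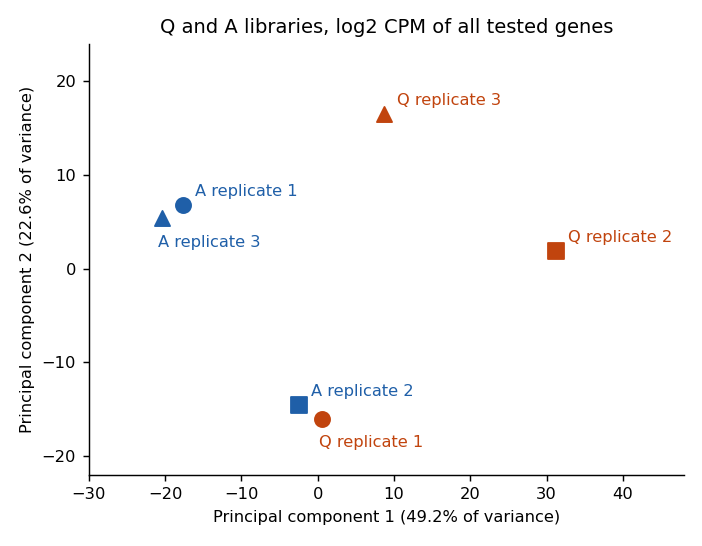
Positions of the Q libraries (orange) and A libraries (blue) on the first and second principal components of log2 CPM over all tested genes, with the replicate number given by the marker and the text. Q replicate 1 and A replicate 2 lie side by side near the bottom, while Q replicate 2 lies farthest to the right.

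Of the 5024 genes tested with edgeR's quasi-likelihood test, 2 changed between Q and A at a Benjamini-Hochberg adjusted p below 0.05, which is 0.0398% of the genes tested. Both were lower in Q and both by more than 2-fold. They were htb1 itself and SPAC11D3.09, a predicted agmatinase gene. No gene was called higher in Q (0% of genes). At an unadjusted p below 0.05 there were 926 genes (18.4%), of which 473 were higher in Q (9.41%) and 453 lower (9.02%). These percentages are the background against which the counts in gene groups below are to be read, since apart from htb1 and SPAC11D3.09 no group member passed the adjusted threshold. In the same fit 936 genes were higher (18.6%) and 795 lower (15.8%) in Q against WT, and 137 were higher (2.73%) and 72 lower (1.43%) in A against WT, with the WT libraries shared by both comparisons. The number of genes called between Q and A rested on single libraries. Without A replicate 2 there were 32 called higher in Q (0.636%) and 151 lower (3.00%), without Q replicate 1 there were 128 higher (2.54%) and 56 lower (1.11%), and DESeq2 on all libraries called 45 higher (0.878%) and 70 lower (1.37%). Leaving out any other single Q or A library called 1 or 2 genes, and the fit of only the Q and A libraries called none.

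**Figure D2:**
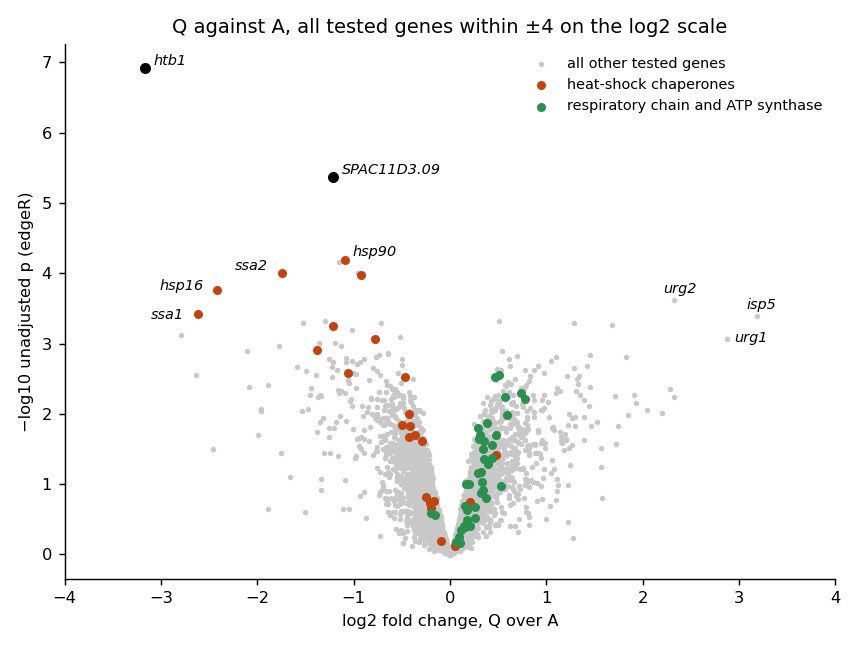
Each point is a tested gene, with the log2 fold change of Q over A on the horizontal axis and −log10 of the unadjusted p from edgeR on the vertical axis. The black points htb1 (log2 fold change -3.17) and SPAC11D3.09 (-1.21) are the only ones called after adjustment, while most heat-shock chaperone genes (orange) lie left of 0 and most respiratory chain genes (green) right of 0. The 6 tested genes whose fitted change exceeds 4 in size, each at 0 counts in every library of one group, lie outside the axis.

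The transcript of the mutated gene gave the largest difference between the strains among the genes called. htb1 (SPCC622.09, chromosome III) had 1134, 1193 and 1281 CPM in Q libraries and 16545, 9921 and 5929 CPM in A libraries. The groups did not overlap, and the A libraries were spread widely while the Q libraries lay close together. The means were 1202 ± 74.0 CPM in Q and 10798 ± 5362 CPM in A (SD, n = 3 each), a log2 fold change of -3.17 (with SE 0.29, adjusted p = 0.000612, edgeR), or 8.98-fold lower in Q. Against WT, at 3215 ± 182 CPM (SD, n = 3), the difference had opposite signs in the 2 strains, with a log2 fold change of -1.42 in Q (adjusted p = 0.00528, edgeR) and of 1.75 in A (adjusted p = 0.0174, edgeR). In R libraries htb1 averaged 5687 ± 240 CPM (SD, n = 3). The counts do not separate transcripts of the altered allele from any other transcript of htb1.

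The remaining histone genes did not share this difference in size. Of the 11 tested genes for core histones and their variants, htb1 was the only one called, and at an unadjusted p below 0.05 there were 3 lower in Q, htb1 included, and 1 higher. hta1, which encodes histone H2A and is the direct neighbour of htb1, had 216, 248 and 233 CPM in Q libraries and 345, 234 and 375 CPM in A libraries. A replicate 2 lay within the range of the Q libraries, and the difference did not pass the test (log2 fold change -0.45 with SE 0.16, adjusted p = 0.225, edgeR); it passed without A replicate 2 (adjusted p = 0.038). Against WT, the log2 fold change of hta1 was -0.86 in Q (adjusted p = 0.00528, edgeR) and -0.40 in A (adjusted p = 0.159, edgeR). The second H2A gene, hta2, gave 830.4, 842 and 866 CPM in Q libraries and 916, 889 and 783 CPM in A libraries, with overlap. sec5, the exocyst subunit gene on the other side of htb1, had 132 ± 28.1 CPM in Q and 137 ± 27.4 CPM in A (SD, n = 3 each, adjusted p = 0.92, edgeR). On the FPKM scale, which allows genes to be set beside each other, the mean level of htb1 was 965 ± 86.1 in Q and 8408 ± 4480 in A, while hta1 and hta2 were at 225 ± 11.7 and 921 ± 52.2 in Q and at 296 ± 72.2 and 902 ± 98.6 in A (SD, n = 3 each). In Q the FPKM of htb1 thus lay beside that of hta2. In A, as in R and WT, it lay above that of every other histone gene in each library. The mean FPKM of htb1 was 4204 ± 152 in R and 2536 ± 148 in WT (SD, n = 3 each).

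The H3 genes hht1, hht2 and hht3 and the H4 genes hhf1, hhf2 and hhf3 encode near-identical proteins, so their reads may have been divided among copies and the values of single copies are uncertain. Their log2 fold changes lay between -0.36, for hhf3, and 0.15, for hht2, and none was called. Against WT, hht1 and hht3 were called lower in Q (log2 fold change -0.63 and -0.38, adjusted p = 0.00767 and 0.0456, edgeR). pht1, the gene of the H2A variant H2A.Z, was called higher in Q against WT (log2 fold change 0.44, adjusted p = 0.0401, edgeR). None of these was called in A against WT. hhf3 had 320.2, 300.4 and 309 CPM in Q libraries and 379, 391 and 423 CPM in A libraries, without overlap but with an adjusted p of 0.202 (edgeR). cnp1, which encodes the centromeric H3 variant CENP-A, had 13.4, 17.9 and 18.6 CPM in Q libraries and 11.5, 12.4 and 12.2 CPM in A libraries (adjusted p = 0.253, edgeR). Among 13 genes for regulators of histone genes and chaperones of H2A and H2B, none was called. hip4 and slm9, subunits of the HIRA histone chaperone that restrains histone transcription outside S phase, were the members with the lowest p. hip4 had 47.6, 51.6 and 51.9 CPM in Q and 69.0, 58.5 and 69.6 CPM in A (adjusted p = 0.197, edgeR). slm9 had 51.1, 45.5 and 49.3 CPM in Q and 64.3, 57.5 and 72.2 CPM in A (adjusted p = 0.198, edgeR). hip4 was called lower without A replicate 2 (adjusted p = 0.044, edgeR).

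**Figure D3:**
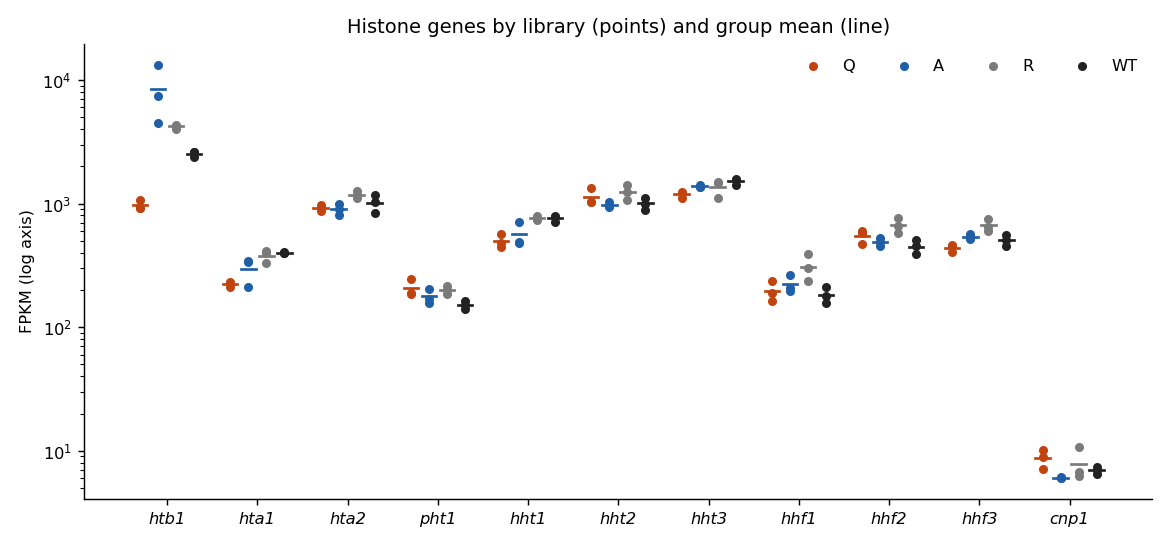
FPKM of the histone genes on a log axis, with Q (orange), A (blue), R (grey) and WT (black) from left to right within each gene, points for libraries and short lines for group means. For htb1 the Q libraries lie lowest and the A libraries highest and widest. For the other genes the groups lie closer together, with hta1 lower in Q than in WT.

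The second gene called, SPAC11D3.09 on chromosome I, is annotated as a predicted agmatinase, an enzyme family that splits agmatine into putrescine and urea. It had 15.8, 16.8 and 16.4 CPM in Q libraries and 47.4, 32.6 and 33.9 CPM in A libraries. The Q values lay within a narrow band well below all A values. The log2 fold change was -1.21 (with SE 0.155, adjusted p = 0.0108, edgeR), or 2.32-fold lower in Q. The mean was 32.8 ± 0.478 CPM in WT and 16.6 ± 1.14 CPM in R (SD, n = 3 each), so A stood beside WT and Q beside R. The call was lost in 7 of the 23 alternatives run, among them the fit without Q replicate 2 (adjusted p = 0.0627) and without Q replicate 3 (adjusted p = 0.0711). Of the 3 genes on either side of it, none was called. On one side, SPAC11D3.08c, a predicted amino acid permease gene, had 167 ± 20.1 CPM in Q and 237 ± 64.6 CPM in A, and SPAC11D3.06, a predicted transporter gene, had 3.93 ± 3.25 CPM in Q and 21.8 ± 11.99 CPM in A (SD, n = 3 each, adjusted p = 0.226 and 0.246, edgeR). On the other side SPAC11D3.10, annotated as a possible cysteine desulfurase, gave 57.0 ± 4.99 CPM in Q and 65.1 ± 3.56 CPM in A (SD, n = 3 each, adjusted p = 0.373, edgeR). hsp3104, a ThiJ domain protein gene 3 genes away on that side, had the lowest p of the 6 neighbours, with 11.9 ± 2.77 CPM in Q and 24.8 ± 8.52 CPM in A (SD, n = 3 each, log2 fold change -1.05, adjusted p = 0.197, edgeR). Without A replicate 2, SPAC11D3.08c and hsp3104 were called lower (adjusted p = 0.031 and 0.0385, edgeR).

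The 8 genes lower in Q with the next lowest p were taken only from genes without overlap and with at least 5 CPM in A. None of them was called, and 5 were on the list of heat-shock chaperone genes. Cytosolic chaperones of the Hsp90, Hsp70 and small heat-shock families hold unfolded proteins in solution and help them fold, and many of their genes are under the heat-shock factor Hsf1. No chaperone gene was called after adjustment. Of the 24 tested genes of this group 16 were lower in Q at an unadjusted p below 0.05 (66.7%, against 9.02% of all tested genes) and 1 was higher. In 16 the libraries did not overlap with Q lower, where 7.98% of all tested genes did so. The median log2 fold change was -0.43, against 0.02 over all tested genes. Fits that called more genes also called chaperones, with 9 called lower without A replicate 2, 8 without Q replicate 1 and 10 by DESeq2, and none called higher in any of the 3. No chaperone was called without A replicate 1, A replicate 3, Q replicate 2 or Q replicate 3. Nor was any called with limma or in the fit of only the Q and A libraries. A replicate 2 and Q replicate 1 were the nearest pair across the groups, so leaving out either tends to widen the gap. The group was chosen with results of these data known, so its counts are a description. Among the alternatives, the adjusted p of hsp90 ranged between 6.5e-06 and 0.414.

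hsp90, the cytosolic Hsp90 chaperone, had 1725, 1360.1 and 1418 CPM in Q libraries and 3165, 2808 and 3619 CPM in A libraries. All Q values lay well below all A values, with a log2 fold change of -1.09 (with SE 0.18, adjusted p = 0.076, edgeR). ssa2, an Hsp70 gene, had 2925, 1389.7 and 2219 CPM in Q and 7511, 5393 and 9010.2 CPM in A (log2 fold change -1.75 with SE 0.31, adjusted p = 0.076, edgeR). ssa1, the gene for the closely related Hsp70 Ssa1, had 456, 249.6 and 309.6 CPM in Q and 1773, 912 and 3534 CPM in A (log2 fold change -2.61 with SE 0.54, adjusted p = 0.159, edgeR). Both Hsp70 genes had their lowest A value in A replicate 2 and their highest in A replicate 3. fes1, whose product releases nucleotide from Hsp70, had 99.5, 67.9 and 74.4 CPM in Q and 154, 129 and 177 CPM in A (adjusted p = 0.076, edgeR). hsp16, the small heat-shock protein gene, had 301, 147 and 155 CPM in Q and 709, 545 and 1968 CPM in A (log2 fold change -2.42 with SE 0.45, adjusted p = 0.107, edgeR). The A libraries of hsp16 were far more spread than the Q libraries, with A replicate 3 highest. hsp104, the disaggregase gene, had 373, 505 and 398 CPM in Q and 941, 580.2 and 1800.0 CPM in A (adjusted p = 0.191, edgeR). psi1, a DNAJ co-chaperone gene, had 287, 341 and 315 CPM in Q and 634, 375 and 958 CPM in A (adjusted p = 0.191, edgeR). All 7 of these genes were called lower without A replicate 2, with adjusted p-values of 0.0175 for hsp90, 0.0175 for ssa2, 0.0188 for ssa1, 0.0175 for fes1, 0.0175 for hsp16, 0.0175 for hsp104 and 0.0175 for psi1 (edgeR). Without Q replicate 1 the adjusted p was 0.0173 for hsp90, 0.0156 for ssa2, 0.038 for ssa1, 0.0112 for fes1 and 0.0188 for hsp16, all called lower (edgeR). R replicate 2 is in neither group and enters through the shared spread, the scaling and the filter. Leaving it out also called hsp90, ssa2 and ssa1 (adjusted p = 0.0107, 0.0337 and 0.0469, edgeR).

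For hsp90, ssa2 and ssa1, the levels of A stood nearer to those of WT than the levels of Q did. Against WT, the log2 fold change of hsp90 was -1.10 in Q (adjusted p = 0.00372, edgeR) and -0.01 in A (adjusted p = 0.989, edgeR). For ssa2 it was -1.66 in Q (adjusted p = 0.00472, edgeR) and 0.08 in A (adjusted p = 0.896, edgeR), and for ssa1 it was -2.15 in Q (adjusted p = 0.0115, edgeR) and 0.47 in A (adjusted p = 0.608, edgeR). hsp16 differed from this order, with -1.10 in Q (adjusted p = 0.0691, edgeR) and 1.32 in A (adjusted p = 0.0956, edgeR), neither of which passed. Both comparisons use the same WT libraries, so the values are given side by side only. Lower means than in WT were not particular to Q. In R the mean was 1933 ± 475 CPM for hsp90, 3898 ± 1280 for ssa2 and 610 ± 344 for ssa1. In WT it was 3213 ± 215, 6889 ± 879 and 1501 ± 385 CPM (SD, n = 3 each). R was not tested against WT.

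Other chaperone genes gave smaller differences or none in the same direction. cdc37, a co-chaperone of Hsp90 for protein kinases, was the 1 member higher in Q at an unadjusted p below 0.05. hsp9, a gene of the stress-induced Hsp9 family, had 7699, 7919 and 5681 CPM in Q and 5576, 9689 and 7401 CPM in A, with full overlap. The cytosolic chaperonin CCT, a ring that folds actin and tubulin, had 8 tested genes, and at an unadjusted p below 0.05 none was higher and none lower, with a median log2 fold change of 0.04 (0 of 8 called by DESeq2). Of 17 genes for folding in the endoplasmic reticulum, 3 (17.6%) were higher in Q at an unadjusted p below 0.05 (gpt1, ire1 and pdi1) and none was lower. bip1, the Hsp70 of that compartment, had 2508, 2577 and 1952 CPM in Q and 2285, 2859 and 2648 CPM in A.

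**Figure D4:**
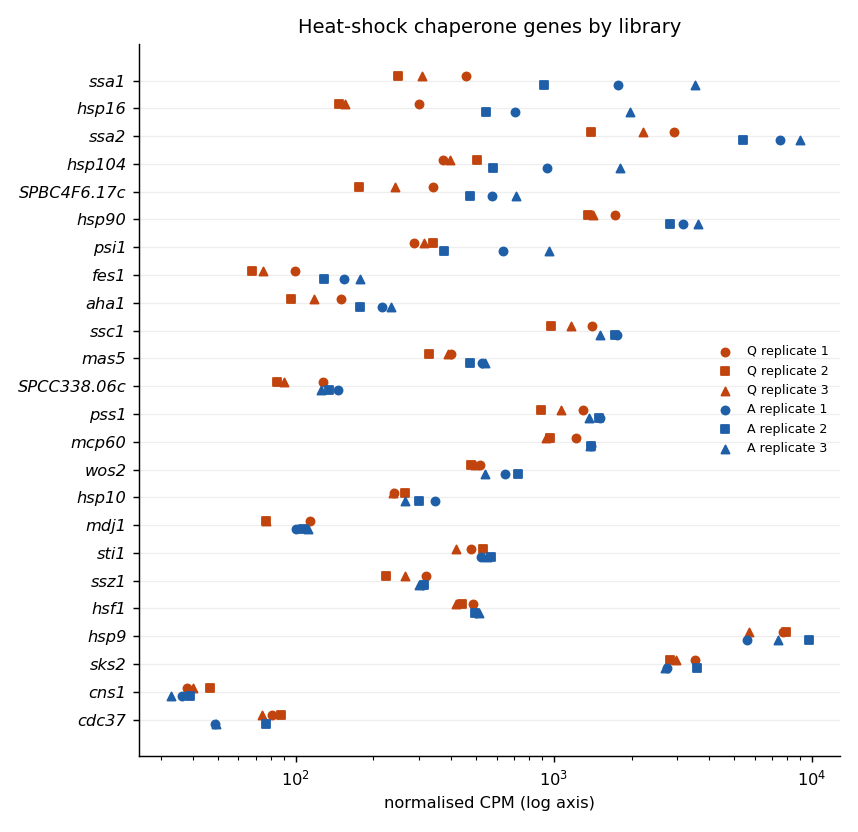
Normalised CPM (log axis) of the 24 tested heat-shock chaperone genes, ordered by log2 fold change of Q over A with the lowest at the top; for each gene the Q libraries (orange) are drawn above the A libraries (blue), and markers give the replicate number. For the genes at the top, ssa1 to psi1, all Q libraries lie left of all A libraries, and A replicate 3 is usually farthest right.

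Because heat-shock genes are read through a defined element, the 500 bases before each start codon in RefSeq (ASM294v3) were searched on both strands for GAA, TTC and GAA in that order with any 2 bases between neighbours, which is an exact match to 3 heat-shock units in alternating orientation. It was found before 51 of 4987 tested genes (1.0%) and before 3 of the 24 chaperone genes (12.5%). The list was drawn up as heat-shock genes, so its share does not bear on Q against A. The 3 were among the 16 chaperone genes lower in Q at an unadjusted p below 0.05, and the other 8 had 0. With so few matches this split says nothing about the difference between Q and A, and it was not tested. The matches nearest the start codon are shown in capitals with 8 flanking bases on either side, on the strand of the gene.
ssa1: gggttggtGAAGGTTCGAGAAtggacaaa
ssa2: ggttttggGAAACTTCGAGAAccgtagcc
psi1: tttttcttGAAAATTCAGGAAcattgtac
The matches start 269, 259 and 306 bases before the start codons of ssa1, ssa2 and psi1, and psi1 held 2 of them. The window may include part of the transcribed leader. A match describes the sequence only, and a gene without one, such as hsp90 or hsp16, has no such string of letters in this window.

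Genes of the general stress response were also mostly lower in Q without being called. This response is driven by the MAP kinase Sty1 and the transcription factor Atf1. Of 27 tested genes, 10 were lower (37.0%) and 2 higher in Q at an unadjusted p below 0.05, and the median log2 fold change was -0.36. pyp2, the Sty1 phosphatase gene and a target of the pathway it dampens, had 260.1, 221 and 269.7 CPM in Q libraries and 1023, 304 and 1904 CPM in A libraries. The groups did not overlap, but A replicate 2 lay just above the Q libraries while A replicates 1 and 3 lay far above (log2 fold change -2.10 with SE 0.50, adjusted p = 0.191, edgeR). srx1, the sulfiredoxin gene, had 65.2, 34.7 and 42.2 CPM in Q and 106, 90.0 and 128 CPM in A (adjusted p = 0.191, edgeR). rsv2, a transcription factor gene, had 369, 522 and 388 CPM in Q and 924, 467 and 1964 CPM in A (adjusted p = 0.191, edgeR). For rsv2 the value of A replicate 2 lay within the range of Q, as it lay low for pyp2. ctt1, the catalase gene, had 2486, 1738 and 2479 CPM in Q and 3353, 3294 and 4434 CPM in A (adjusted p = 0.212, edgeR). The kinase gene sty1 itself had 549, 587 and 427 CPM in Q and 423, 543 and 458 CPM in A, and atf1 had 153, 251 and 170.3 CPM in Q and 235, 156 and 242 CPM in A. Both regulators overlapped between the groups. A replicate 3 was the highest of the 6 libraries for 13 of the 27 genes. Leaving out A replicate 2 called 5 of the 27 lower, among them those with adjusted p-values of 0.00889 for pyp2, 0.0157 for rsv2 and 0.0471 for srx1 (edgeR), and leaving out Q replicate 1 called 3 lower and 1 higher, srx1 among the lower with 0.0215 (edgeR). The part that A replicate 3 has in the result was not tested beyond the fit that leaves it out. Among 24 oxidative stress genes 6 were lower (25%, including trx1, thioredoxin) and 1 higher (4.17%, grx4, a monothiol glutaredoxin) at an unadjusted p below 0.05. trx1 had 290.2, 225 and 245 CPM in Q and 417, 391 and 445 CPM in A (log2 fold change -0.72 with SE 0.15, adjusted p = 0.159, edgeR). trx1 was called lower without A replicate 2 (adjusted p = 0.0439, edgeR) and without Q replicate 1 (adjusted p = 0.0282, edgeR).

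The other 3 of those 8 genes lower in Q were of mixed function. wis2, a cyclophilin gene whose product binds Hsp90, had 57.6, 47.6 and 71.9 CPM in Q libraries and 157, 89.7 and 146 CPM in A libraries (log2 fold change -1.15 with SE 0.195, adjusted p = 0.076, edgeR). ecl2, a gene that extends chronological lifespan when overexpressed, had 220.1, 236 and 199 CPM in Q and 396, 331 and 539.7 CPM in A (log2 fold change -0.95, adjusted p = 0.076, edgeR). Neither gene overlapped between the groups, as their selection required, and both had their lowest A value in A replicate 2. SPAC25B8.12c, annotated as a hydrolase of the HAD superfamily, had 114, 108 and 98.7 CPM in Q and 266, 151 and 373 CPM in A (adjusted p = 0.159, edgeR). Each was called lower without A replicate 2, with adjusted p-values of 0.00336 for wis2, 0.0111 for ecl2 and 0.00889 for SPAC25B8.12c (edgeR), and without Q replicate 1, with 0.0285 for wis2, 0.0294 for ecl2 and 0.0497 for SPAC25B8.12c (edgeR).

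Genes of sugar uptake and of growth on poor carbon sources gave lower values in Q, most of all against A replicate 3. Of 17 tested genes listed as glucose-repressed or gluconeogenic, 11 were lower (64.7%) and 1 higher in Q at an unadjusted p below 0.05, with a median log2 fold change of -0.57. The list includes pck1, which in fission yeast is the name of a protein kinase C gene and not of a gluconeogenic enzyme (log2 fold change 0.30, unadjusted p = 0.0713, edgeR). It is among the 17 but in neither count. A replicate 3 was the highest of the 6 libraries for 13 of the 17. gut2, the mitochondrial glycerol-3-phosphate dehydrogenase gene, had 138, 86.9 and 119 CPM in Q libraries and 526, 207 and 1652 CPM in A libraries. A replicate 3 lay far above the other A libraries, and the difference did not pass (log2 fold change -2.80 with SE 0.63, adjusted p = 0.187, edgeR). scr1, which encodes the repressor that acts on glucose-repressed genes, had 80.4, 82.6 and 57.7 CPM in Q and 137, 101 and 195 CPM in A (adjusted p = 0.191, edgeR). gld1, a mitochondrial glycerol dehydrogenase gene, had 34.8, 58.4 and 19.9 CPM in Q and 116, 55.7 and 247 CPM in A, with overlap (adjusted p = 0.197, edgeR). For both genes A replicate 3 was again the highest library. inv1, the invertase gene, had 721, 369 and 394 CPM in Q and 984, 649 and 2411 CPM in A, with overlap. fbp1, the fructose-1,6-bisphosphatase gene and the classic glucose-repressed gene of this yeast, went the other way. It had 141, 476 and 237 CPM in Q and 97.8, 155 and 157 CPM in A (log2 fold change 1.06, adjusted p = 0.26, edgeR). Of the 17 listed genes 3 had a log2 fold change above 0, fbp1 and pck1 among them. All 7 tested hexose transporter genes had a log2 fold change below 0, with a median of -0.80, and for all 7 A replicate 3 was the highest and A replicate 2 the lowest A library. ght2 had 198, 200.1 and 167 CPM in Q and 402, 233 and 791 CPM in A (adjusted p = 0.197, edgeR). ght8 had 831, 1540.2 and 805 CPM in Q and 2381, 1011 and 3835 CPM in A, with A replicate 2 inside the range of Q (adjusted p = 0.212, edgeR). ght3 had 4.05, 2.99 and 6.36 CPM in Q and 9.88, 5.79 and 16.3 CPM in A (adjusted p = 0.22, edgeR). Leaving out A replicate 2 called 4 of the 17 listed genes lower, with adjusted p-values of 0.0175 for gut2, 0.036 for scr1, 0.0392 for inv1 and 0.0412 for gld1, and 2 of the 7 transporter genes, with 0.0399 for ght2 and 0.0392 for ght8 (edgeR). Leaving out Q replicate 1 called none of either group.

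The respiratory chain showed the opposite direction. Its genes encode the complexes that pass electrons to oxygen and the ATP synthase that uses the resulting proton gradient. Of the 40 tested nuclear genes, 38 had a log2 fold change above 0 (95%, against 52.1% of all tested genes), and 16 were higher in Q (40%) and none lower at an unadjusted p below 0.05. None was called after adjustment. In 13 the Q libraries all lay above the A libraries, where 8.60% of all tested genes did so. The median log2 fold change was 0.32. cyt1, the cytochrome c1 gene, had 542, 702 and 494 CPM in Q libraries and 371, 448 and 401 CPM in A libraries (log2 fold change 0.51 with SE 0.14, adjusted p = 0.191, edgeR). cox12, a cytochrome c oxidase subunit gene, had 52.1, 70.1 and 58.6 CPM in Q and 33.9, 39.5 and 35.3 CPM in A (log2 fold change 0.73 with SE 0.21, adjusted p = 0.197, edgeR). SPCC70.02c, a predicted inhibitor of the ATP synthase, had 107, 129.9 and 95.9 CPM in Q and 70.1, 85.3 and 84.9 CPM in A (log2 fold change 0.47, adjusted p = 0.191, edgeR). All 3 of these genes separated the groups without being called. qcr10, a subunit gene of the cytochrome bc1 complex, had 44.8, 64.3 and 44.7 CPM in Q and 24.2, 32.7 and 32.9 CPM in A (log2 fold change 0.78, adjusted p = 0.198, edgeR). None of these genes reached a 2-fold difference. Q replicate 2 was the highest of the 6 libraries for 33 of the 40 genes, and A replicate 2 the highest A library for 32.

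Cytosolic ribosomal protein genes followed the same libraries with a smaller size. Of 131 tested genes, 125 had a log2 fold change above 0 (95.4%) with a median of 0.18, but 9 were higher in Q at an unadjusted p below 0.05 (6.87%, under the 9.41% of all tested genes), and none was lower. The summed level of the group was 57619, 64887 and 50218 CPM in Q libraries and 48728, 59576 and 43499 CPM in A libraries, so A replicate 2 lay within the range of the Q libraries. A replicate 2 was the highest A library for 129 of the 131 genes and A replicate 3 the lowest for 124. rpl803, a gene for ribosomal protein L8, had 344, 499 and 352 CPM in Q and 285, 337 and 257 CPM in A (log2 fold change 0.44, adjusted p = 0.217, edgeR). rpl1602 and rps403, the next members by p, had log2 fold changes of 0.31 and 0.40 (adjusted p = 0.235 and 0.238, edgeR) and overlapped between the groups. Many of these genes come in near-identical pairs among which reads may be divided. Of 93 genes for ribosome assembly, 12 were lower (12.9%) and 2 higher in Q at an unadjusted p below 0.05, with a median of -0.07. noc3, which encodes a subunit of a complex for export of the large ribosomal subunit, went against most of them, with 8.22, 14.2 and 22.6 CPM in Q and 6.37, 6.10 and 6.01 CPM in A (log2 fold change 1.29, adjusted p = 0.191, edgeR). rrp12 and the predicted Utp21 gene SPCC1672.07, both for ribosomal RNA processing, had log2 fold changes of -0.49 and -0.42 (adjusted p = 0.197 and 0.197, edgeR), without overlap. rrp12 was called lower without A replicate 2 (adjusted p = 0.0228, edgeR), and noc3 higher without Q replicate 1 (adjusted p = 0.0194, edgeR).

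The 10 genes higher in Q with the lowest p were taken only from genes without overlap and with at least 5 CPM in Q. The 3 with the largest differences lay in 2 small neighbourhoods of chromosome I, and none of the 10 was called. urg1, urg2 and urg3 are adjacent genes known in fission yeast for their induction by uracil. urg2, a predicted uracil phosphoribosyltransferase gene, had 304, 716 and 547 CPM in Q libraries and 48.3, 129.9 and 135 CPM in A libraries. Every Q library lay above every A library, as its selection required, and the log2 fold change was 2.32 (with SE 0.45, adjusted p = 0.136, edgeR). urg1, a predicted GTP cyclohydrolase gene, had 939, 3152 and 1426 CPM in Q and 82.1, 341 and 329.9 CPM in A (log2 fold change 2.87 with SE 0.65, adjusted p = 0.187, edgeR). urg3 had 103, 175 and 115 CPM in Q and 38.9, 58.4 and 63.7 CPM in A (log2 fold change 1.29 with SE 0.27, adjusted p = 0.159, edgeR). In all 3 genes A replicate 1 was the lowest and Q replicate 2 the highest library. Against WT, the log2 fold change of urg1 was 2.35 in Q (adjusted p = 0.0168, edgeR) and -0.53 in A (adjusted p = 0.633, edgeR). Beyond urg1, a further predicted uracil phosphoribosyltransferase gene, SPAC1399.04c, had 17.9 ± 9.05 CPM in Q and 9.23 ± 0.724 CPM in A (SD, n = 3 each, log2 fold change 0.96, adjusted p = 0.2, edgeR). The uracil permease gene fur4, next to it, had 27.8 ± 4.53 CPM in Q and 32.0 ± 8.35 CPM in A (SD, n = 3 each). Leaving out A replicate 2 called higher urg2 and urg3 (adjusted p = 0.0425 and 0.0492, edgeR), and leaving out Q replicate 1 called urg2, urg3, urg1 and SPAC1399.04c (adjusted p = 0.0176, 0.0285, 0.0325 and 0.0497, edgeR).

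isp5, an amino acid permease gene that is induced on nitrogen starvation, gave the largest positive log2 fold change among the genes named here, with a wide spread between the Q libraries. It had 55.2, 654 and 221 CPM in Q libraries and 29.8, 34.4 and 37.6 CPM in A libraries. Q replicate 2 lay far above Q replicate 1 while the A libraries lay together, and the difference did not pass (log2 fold change 3.19 with SE 0.66, adjusted p = 0.159, edgeR). It passed without Q replicate 1 (adjusted p = 0.00663). Its neighbours SPAC1039.08, a predicted serine acetyltransferase gene, and SPAC1039.07c, a possible transaminase gene, had 14.5 ± 8.28 and 195 ± 126 CPM in Q and 5.84 ± 0.415 and 84.4 ± 18.1 CPM in A (SD, n = 3 each, adjusted p = 0.197 and 0.235, edgeR). Of 25 genes for nitrogen starvation and amino acid uptake, 5 were higher (20%) and 3 lower (12%) in Q at an unadjusted p below 0.05, with a median of 0. fnx2, a vacuolar amino acid transporter gene, had 126, 149 and 120.5 CPM in Q and 89.7, 91.8 and 97.1 CPM in A (log2 fold change 0.50 with SE 0.11, adjusted p = 0.159, edgeR). amt1, an ammonium transporter gene, had 54.1, 96.9 and 68.0 CPM in Q and 40.9, 31.7 and 43.6 CPM in A (adjusted p = 0.191, edgeR). cat1, a cationic amino acid permease gene, had the opposite order, with 213, 141 and 172 CPM in Q and 298, 216 and 316 CPM in A (adjusted p = 0.197, edgeR). The groups did not overlap for these 3 genes, although for cat1 the lowest A library lay just above the highest Q library. SPCC70.03c, a predicted proline dehydrogenase gene, had 1048, 2299 and 1412 CPM in Q and 664, 901 and 653 CPM in A (log2 fold change 1.10 with SE 0.27, adjusted p = 0.191, edgeR). Leaving out A replicate 2 called fnx2 and SPCC70.03c higher and cat1 lower (adjusted p = 0.0492, 0.0492 and 0.0471, edgeR). Leaving out Q replicate 1 gave an adjusted p of 0.0374 for fnx2, 0.0343 for amt1, 0.0238 for SPCC70.03c, 0.0497 for cat1 and 0.0188 for SPAC1039.08 (edgeR), with the same directions.

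Of the remaining genes of lowest p with higher values in Q, grx4 had 65.3, 84.0 and 86.8 CPM in Q libraries and 52.4, 52.8 and 57.5 CPM in A libraries (log2 fold change 0.54, adjusted p = 0.191, edgeR). clp1, a Cdc14-family phosphatase gene that acts at the end of mitosis, had 65.6, 88.5 and 82.2 CPM in Q and 46.7, 55.7 and 52.5 CPM in A (log2 fold change 0.61, adjusted p = 0.191, edgeR). For both genes the lowest Q library lay above the highest A library. SPAC3H1.06c, a predicted transporter gene, had 89.3, 104 and 85.5 CPM in Q and 51.9, 47.5 and 73.3 CPM in A. SPAC11D3.03c, a gene of a conserved protein in the list of the left end of chromosome I, had 16.4, 54.0 and 23.9 CPM in Q and 7.95, 10.8 and 10.6 CPM in A. None of these 4 genes overlapped between the groups, which their selection required, and none was called. Without Q replicate 1 the adjusted p was 0.0203 for grx4, 0.0323 for clp1 and 0.0119 for SPAC11D3.03c (edgeR), all called higher.

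Genes of the pheromone response and of entry into meiosis, which fission yeast uses when nitrogen runs out, were in part higher in Q. Of 24 tested genes, 8 were higher (33.3%) and none lower at an unadjusted p below 0.05, and none was called. mei2, the RNA-binding protein that switches cells into meiosis, had 31.1, 62.6 and 35.6 CPM in Q libraries and 9.71, 23.4 and 14.2 CPM in A libraries (log2 fold change 1.45 with SE 0.41, adjusted p = 0.197, edgeR). gpa1, the pheromone-coupled G protein gene, had 219.7, 289 and 234 CPM in Q and 146, 195 and 178 CPM in A (adjusted p = 0.2, edgeR). mcp5, a cortical anchor of dynein in meiotic prophase, had 148, 219 and 145 CPM in Q and 85.5, 131 and 127 CPM in A (adjusted p = 0.2, edgeR). The groups did not overlap for these 3 genes, and the differences did not pass. ste11, the transcription factor that controls this programme, had 73.4, 219 and 171 CPM in Q and 76.9, 85.5 and 124 CPM in A, with overlap. The median of the group was 0.13. mei2 was called higher without A replicate 2 (adjusted p = 0.0492, edgeR), and ste11 without Q replicate 1 (adjusted p = 0.0345, edgeR).

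Markers of both mating types were present in all 6 libraries. The summed level of the 7 M-cell markers was 405, 470.2 and 491 CPM in Q libraries and 352, 435 and 384 CPM in A libraries, and that of the 5 P-cell markers was 1577, 2203 and 1755 CPM in Q and 1271, 1617 and 1439.9 CPM in A. Neither sum was low in one group. mam2, the receptor gene for P-factor in M cells, had 28.2, 87.3 and 73.2 CPM in Q and 24.3, 31.6 and 29.6 CPM in A, with overlap (adjusted p = 0.197, edgeR). sxa1 and map1, a protease gene and a transcription factor gene of P cells, had log2 fold changes of 0.41 and 0.59 (adjusted p = 0.235 and 0.248, edgeR). map3 of the P-cell list and sxa2 of the M-cell list were lower in Q, at -0.36 and -0.25 (adjusted p = 0.611 and 0.302, edgeR). Of the 5 P-cell markers 2 had a log2 fold change above 0 and 3 below. Of the 7 M-cell markers 5 lay above 0 and 2 below. sxa1 made up most of the P-cell sum, with 1316, 2030 and 1496 CPM in Q and 1044, 1389 and 1211 CPM in A. map1 was called higher without A replicate 2 (adjusted p = 0.0425, edgeR), and mam2 without Q replicate 1 (adjusted p = 0.0112, edgeR). The M-factor genes mfm1 and mfm3 were near the floor in every library, at between 0.351 and 2.76 CPM, whereas mfm2 lay between 98.5 and 188 CPM. In RNA from whole cultures, fewer cells that express a gene and less RNA of it per cell cannot be told apart.

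No gene on the lists for histone modification, heterochromatin and DNA repair was called. Among 38 genes for histone acetylation and deacetylation, 4 were higher (10.5%) and 3 lower (7.89%) in Q at an unadjusted p below 0.05. This is near the 9.41% and 9.02% of all tested genes. gcn5, the acetyltransferase subunit of SAGA, had 17.3, 13.1 and 22.1 CPM in Q libraries and 32.9, 22.3 and 30.5 CPM in A libraries, with Q replicate 3 just below A replicate 2 (adjusted p = 0.198, edgeR). mst2, the acetyltransferase gene of the Mst2 complex, had 147, 238 and 235 CPM in Q and 127, 128 and 154 CPM in A, with overlap (adjusted p = 0.197, edgeR). ada2, which encodes a partner of Gcn5 in SAGA, had 29.1, 30.9 and 29.4 CPM in Q and 48.8, 28.6 and 47.8 CPM in A, with overlap (adjusted p = 0.223, edgeR). Of 24 genes for H2B ubiquitylation and histone methylation 4 were higher (16.7%) and 2 lower (8.33%). Of 40 genes for heterochromatin and RNA interference 1 was higher (2.5%) and 2 lower (5%). lid2, which encodes a predicted histone demethylase, had 87.9, 61.8 and 75.4 CPM in Q and 111, 90.8 and 114 CPM in A (adjusted p = 0.198, edgeR). shf1, a subunit gene of the complex that attaches ubiquitin to H2B, had 43.1, 50.5 and 33.1 CPM in Q and 31.3, 32.0 and 20.3 CPM in A (adjusted p = 0.238, edgeR). leo1, a gene of the Paf1 elongation complex, had 249, 342 and 288 CPM in Q and 212, 233 and 226 CPM in A (adjusted p = 0.235, edgeR). Each of these 3 separated the groups by a small margin without being called. sap1, an essential DNA-binding protein gene, had 81.2, 109 and 97.5 CPM in Q and 134, 114 and 161 CPM in A (adjusted p = 0.197, edgeR), and arb2, an Argonaute-binding protein gene, had 15.3, 13.9 and 15.8 CPM in Q and 10.2, 12.5 and 9.20 CPM in A (adjusted p = 0.226, edgeR). clr4, the H3 lysine 9 methyltransferase gene, had 45.9, 37.9 and 49.0 CPM in Q and 66.1, 43.3 and 72.9 CPM in A (adjusted p = 0.248, edgeR). Leaving out A replicate 2 called ada2 and sap1 lower (adjusted p = 0.0175 and 0.0425, edgeR). Leaving out Q replicate 1 called mst2 higher and lid2 lower (adjusted p = 0.0113 and 0.0497, edgeR).

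In DNA repair, 41 genes of homologous recombination gave 4 higher and 3 lower in Q at an unadjusted p below 0.05, which is 9.76% and 7.32% of them, near the 9.41% and 9.02% of all tested genes. nbs1, a subunit of the MRN complex that binds broken ends, had 20.1, 30.8 and 30.5 CPM in Q libraries and 11.5, 14.4 and 11.96 CPM in A libraries (log2 fold change 1.10 with SE 0.32, adjusted p = 0.197, edgeR). exo1, the exonuclease gene that resects ends, had 77.3, 131 and 104 CPM in Q and 57.4, 74.4 and 48.3 CPM in A (adjusted p = 0.223, edgeR). nse5, a subunit gene of the Smc5-6 complex, had 6.29, 4.70 and 8.22 CPM in Q and 14.0, 8.35 and 11.4 CPM in A (adjusted p = 0.202, edgeR). All 3 separated the groups without being called. Of 22 checkpoint genes 3 were higher (13.6%) and 1 lower (4.55%). rad3, the ATR-family kinase, had 81.4, 151 and 188 CPM in Q and 71.3, 77.2 and 81.0 CPM in A (adjusted p = 0.2, edgeR). cds1, the replication checkpoint kinase, had 60.4, 89.0 and 73.9 CPM in Q and 40.6, 53.8 and 45.7 CPM in A (adjusted p = 0.231, edgeR). wee1, the kinase that delays mitosis, had 172, 215 and 188 CPM in Q and 290.2, 172 and 325 CPM in A, with overlap (adjusted p = 0.248, edgeR). Of 26 excision and mismatch repair genes 1 was lower (3.85%) and none higher, and of 6 end-joining genes none was either. wee1 was called lower without A replicate 2 (adjusted p = 0.0228, edgeR), and rad3 higher without Q replicate 1 (adjusted p = 0.0287, edgeR).

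Genes near chromosome ends, which lie beside heterochromatin, were counted end by end, and no difference between the ends was tested. The shares over all tested genes to set beside them are 9.41% higher and 9.02% lower. Of 45 tested genes at the left end of chromosome I, 10 were higher (22.2%) and 8 lower (17.8%) in Q at an unadjusted p below 0.05. The 1 called was SPAC11D3.09. Of 31 at the right end, 8 were higher (25.8%) and 3 lower (9.68%). Of 57 at the ends of chromosome II, 6 were higher and 6 lower (10.5% each), near the shares of all tested genes. SPAC186.06, at the right end of chromosome I, had 10.2, 17.5 and 12.3 CPM in Q libraries and 5.85, 4.02 and 5.05 CPM in A libraries (log2 fold change 1.42 with SE 0.37, adjusted p = 0.191, edgeR). SPAC977.09c had 63.5, 117 and 69.2 CPM in Q and 48.6, 35.7 and 36.2 CPM in A (log2 fold change 1.05 with SE 0.26, adjusted p = 0.191, edgeR). SPAC186.07c, a predicted hydroxyacid dehydrogenase gene, had 53.1, 208 and 104 CPM in Q and 14.7, 53.6 and 27.6 CPM in A, with overlap. Of these 3 right-end genes, 2 separated the groups. mfs2, a predicted transporter gene of the left-end list, had 86.3, 63.7 and 69.2 CPM in Q and 134, 89.4 and 142 CPM in A (adjusted p = 0.191, edgeR). SPBC1348.05, a predicted transporter gene at an end of chromosome II, had 2.80, 4.88 and 3.77 CPM in Q and 1.87, 1.58 and 1.08 CPM in A (adjusted p = 0.197, edgeR). mfs2 was called lower without A replicate 2 (adjusted p = 0.0175, edgeR) and without Q replicate 1 (adjusted p = 0.038, edgeR), and SPAC977.09c higher without Q replicate 1 (adjusted p = 0.0394, edgeR). At an unadjusted p below 0.05 and by chromosome, 235 genes were higher and 176 lower of 2275 on chromosome I, 169 higher and 164 lower of 1817 on chromosome II, and 67 higher and 108 lower of 895 on chromosome III.

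**Figure D5:**
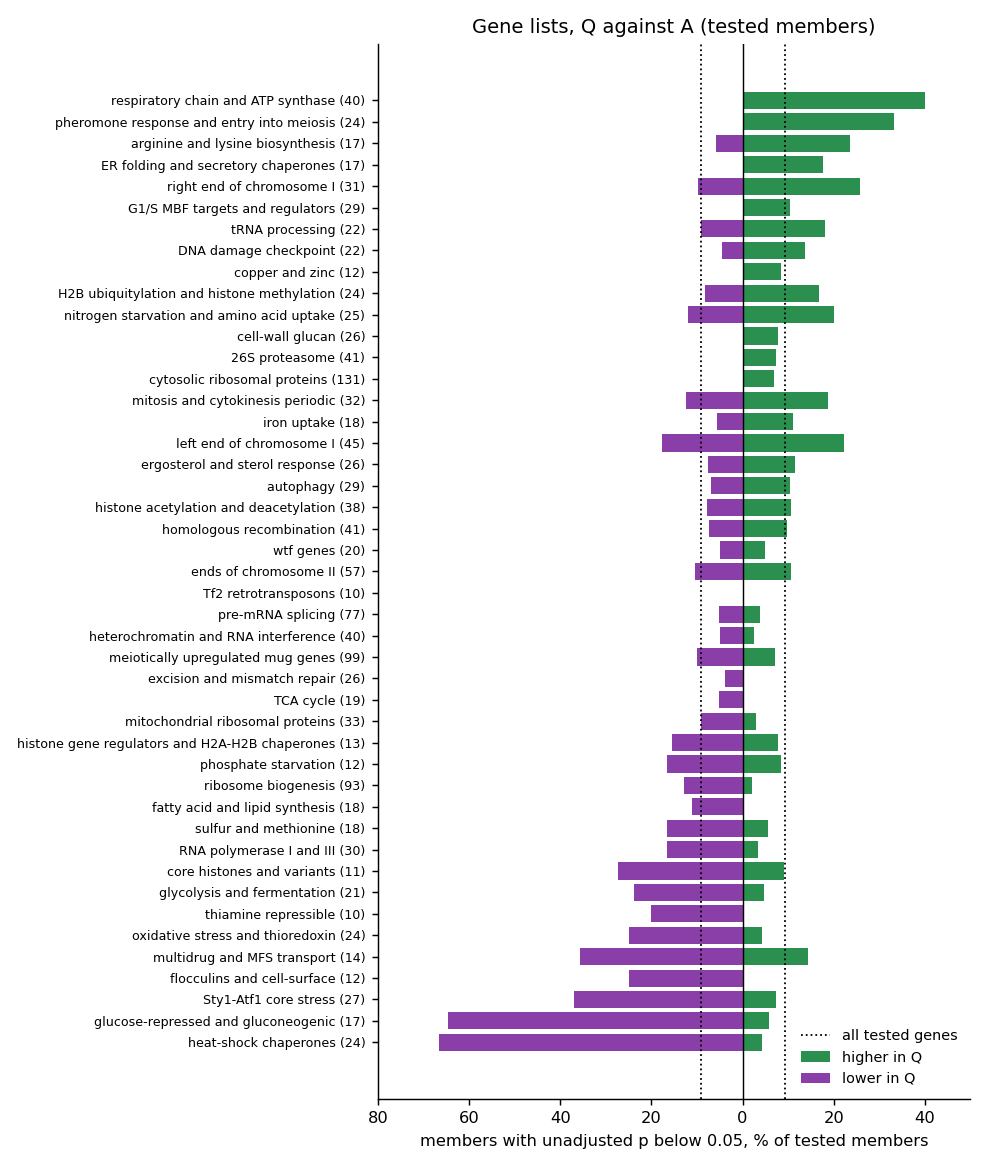
For each gene list with at least 10 tested members (number in parentheses), bars give the percentage of members with an unadjusted p below 0.05 that were higher in Q (green, to the right) or lower in Q (purple, to the left). Dotted lines mark the same percentages over all tested genes, 9.41% higher and 9.02% lower; the heat-shock chaperones reach 66.7% lower and the respiratory chain genes 40% higher.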

How the data were processed

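RNA was measured in 12 libraries, of which the 3 Q and 3 A libraries were compared; groups came from the sample titles. Per the labels' protocols RNA was extracted with Trizol and enriched with oligo(dT). Tools named in the submitters' processing notes, with no role given, are DESeq2, RSEM, StringTie, HISAT2, Bowtie2 and fastp. No build, annotation or strand setting is stated (not given in the sources used here). The deposited counts are whole numbers per gene and library, and FPKM stands beside them, per the file headers. Of 5160 genes, 32 had no count, and 5109 matched RefSeq (ASM294v3), used for names, gene order and sequences.

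The test was that of edgeR 4.0.16 (R 4.3.3) on the counts (filter by filterByExpr, which left out 136 genes, TMM, quasi-likelihood fit of all 12 libraries with group as the only term, contrast Q minus A, adjustment over 5024 genes, two-sided; common biological coefficient of variation 0.186). SEs derive from the fold change and the F statistic. Alternatives used DESeq2 1.42.0, limma 3.58.1 on log2(FPKM + 1) or + 0.1, other filters and scaling, the replicate block and leaving out libraries. The test was checked on simulated data with the same spread for every gene and no outlying library. That check does not cover libraries that diverge as these do. Replicates differed by far more than counting noise (chi-square per degree of freedom 93.4 to 204.3), so none is a copy. Reads carry no molecular identifiers, so floors cover counting error only.

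Named genes were htb1, hta1, up to 10 genes in each direction that were called, at least 2-fold apart, at 5 CPM or more and without overlap, filled up with those of lowest p (said not to be called), and the 3 members of lowest p in each list described. Some lists are given by counts only, and further members were named after their values were seen. The members and the 52 gene lists were chosen with earlier results of these data known, and no list was tested as a set.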

Additional observations from a re-analysis of the deposited data

How the results depend on the processing

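The 2 genes called, both at least 2-fold, remained 2 with RLE scaling and with no filter on low counts. DESeq2 called 115 genes (65 of at least 2-fold), the replicate block 96 (42), both replicates 2 left out 23 (15), each of the 3 limma fits on FPKM 1 (1), and the fit of only the Q and A libraries 0 (0), with 630 genes at an unadjusted p below 0.05. Leaving out 1 Q or A library gave between 1 and 184 (1 to 80 of at least 2-fold), and leaving out 1 WT or R library between 2 and 6 (2 to 5); 183 were called without A replicate 2 and 184 without Q replicate 1. Chosen after seeing the data, Q replicate 1 and A replicate 2 both left out gave 381 (141), and only the Q and A libraries with the replicate block gave 7 (7). The pair left out was picked because it lay closest across the groups, so its removal widens the gap between them by construction. Otherwise the cause was not tested.

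htb1 had a log2 fold change of -3.17 in the fit of only the Q and A libraries but an adjusted p of 0.0555, and it was called in the other 22 alternatives. SPAC11D3.09 was not called in that fit (adjusted p = 0.284), with limma (0.0523 to 0.0655), without Q replicate 2 (0.0627), without Q replicate 3 (0.0711), and with only Q and A and the replicate block (0.129). Replicate numbers are not stated to mark a shared batch. The correlations of deviations between same-numbered libraries of Q and A were -0.18, 0.2 and 0.13. Those between differently numbered libraries ranged between -0.37 and 0.37. These values do not settle whether replicate numbers pair the groups, and the block is given as an alternative. For 163 named genes, 3468 of 3749 values under alternatives kept direction and side of the threshold, 264 passed it newly and 8 lost it. The 9 that changed sign belong to 7 genes, 8 of them from leaving out 1 library; over leaving out each library in turn, cct3 ranged between -0.01 and 0.29, cct8 between -0.01 and 0.24, cct6 between -0.09 and 0.22, gal1 between -0.08 and 0.22, pol4 between -0.64 and 0.00, and the retrotransposons Tf2-1 between -0.90 and 1.24 and Tf2-3 between -0.40 and 0.70 (log2). gal1 was also at -0.07 with both replicates 2 left out. Both Tf2 copies changed sign without Q replicate 3. FPKM values shift the median of all genes to between 0.065 and 0.069 on the log2 scale, against 0.016 for counts. With 3 libraries a group, genes near the floor of 3 counts cannot show a difference at this depth.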

Other observations

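Retrotransposons of the Tf2 family varied most between Q libraries. Tf2-1 had 18.4, 14.2 and 124 CPM in Q libraries and 27.0, 21.6 and 41.9 CPM in A libraries, and Tf2-3 had 15.8, 16.1 and 51.9 CPM in Q and 26.7, 16.6 and 19.7 CPM in A. Q replicate 3 was the highest of the 6 libraries for both. None of the 10 tested Tf2 genes had an unadjusted p below 0.05, and their near-identical copies share reads, so values of single copies are uncertain.

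mde6, listed with genes of the G1/S transition, had 192, 579 and 575 CPM in Q libraries and 133, 199.9 and 158 CPM in A libraries (log2 fold change 1.46 with SE 0.36, adjusted p = 0.191, edgeR). fub2, listed with the proteasome, had 216, 841 and 669.8 CPM in Q and 34.0, 219.8 and 102 CPM in A (log2 fold change 2.28 with SE 0.66, adjusted p = 0.197, edgeR). SPBPB21E7.04c, at an end of chromosome II, had 335, 1619.5 and 922 CPM in Q and 82.6, 302 and 191 CPM in A (log2 fold change 2.32 with SE 0.70, adjusted p = 0.197, edgeR). In all 3 genes Q replicate 1 was the lowest Q library and Q replicate 2 the highest, and none was called. Without Q replicate 1 the adjusted p was 0.00873 for mde6, 0.0463 for fub2 and 0.0497 for SPBPB21E7.04c (edgeR), and without A replicate 2 it was 0.0466 for fub2 (edgeR), all called higher.

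uga1, which encodes a GABA transaminase, had 0 counts in all Q and A libraries and in R, and 6.43 CPM on average in WT.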
